A study of Mus musculus with 40 samples.

Results

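The genes described here are 40 members of the cellular stress programmes: 22 genes of the integrated stress response, the arm that runs through the transcription factor ATF4, and 18 genes of the unfolded protein response of the endoplasmic reticulum (ER), most of them chaperones and folding enzymes. They were taken by symbol from a table of 55414 genes, and each of the 40 was found. Ddit3 is listed under 2 identifiers, so the 40 members fill 41 rows. Expression was measured by RNA sequencing in mpkCCD cells, an immortalized line from the mouse kidney collecting duct, grown on permeable supports. For 72 hours all cells, the controls included, received dDAVP, a vasopressin analogue, at 0.1 nM. Of the 22 libraries in the table, 11 are of control clones of unmodified genotype (WT). The label ATF1-KO has 5 libraries, the label ATF1/CREB1-KO has 3, and ATF1/CREB1/CREM-KO has another 3. The targeted genes encode 3 related transcription factors that bind the cAMP response element. Library numbers place control clones 1 to 5 with the ATF1-KO libraries, clones 6 to 8 with ATF1/CREB1-KO and clones 9 to 11 with ATF1/CREB1/CREM-KO. These 3 sets are called runs here, although the labels do not call them batches, and each knockout label was compared with the control clones of its own run. The labels do not say whether the knockout replicates are separate clones or cultures, so the p-values measure the spread between these libraries, which may be technical.

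In the integrated stress response, stress kinases phosphorylate the translation factor eIF2, general protein synthesis slows, and the Atf4 mRNA is translated more efficiently. ATF4 protein then raises genes for amino acid synthesis and uptake, and its own regulators. In the unfolded protein response, the ER sensors PERK, IRE1 and ATF6 act on misfolded protein: PERK feeds into ATF4, IRE1 splices the Xbp1 mRNA, and ATF6 and XBP1 raise chaperones and the machinery that removes misfolded protein from the ER. Collecting duct cells make and traffic large amounts of membrane protein, among them the vasopressin-regulated water channel encoded by Aqp2. Transcript levels, the only readout here, show neither ATF4 translation nor Xbp1 splicing.

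Known response elements were found in some promoters of each arm, and 7 promoters are shown because they belong to members on which the results turn or because they hold the textbook form of an element. Sequences are from RefSeq on GRCm38.p6, written 5′ to 3′ on the strand of the gene, with capitals on the motifs named. The first is that of Herpud1 (chr8:94386279-94386428, plus strand, bases -150 to -1 before the start), with in order a cAMP response element half-site, TGACG, a C/EBP-ATF response element (CARE, TGATGNAA, here on the opposite strand) and an ER stress element II (ERSE-II, ATTGG and CCACG with 1 base, N, between them):
Herpud1: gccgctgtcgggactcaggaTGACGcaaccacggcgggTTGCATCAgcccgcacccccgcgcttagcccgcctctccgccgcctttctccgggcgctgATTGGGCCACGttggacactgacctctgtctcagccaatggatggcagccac
The next stretches hold a CARE, in Pycr1 (chr11:120643809-120643888, minus strand), Chac1 (chr2:119350992-119351141, plus strand, after a TGACG half-site) and Asns (chr6:7693210-7693269, minus strand):
Pycr1: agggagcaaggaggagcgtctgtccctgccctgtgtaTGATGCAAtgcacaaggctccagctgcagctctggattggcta
Chac1: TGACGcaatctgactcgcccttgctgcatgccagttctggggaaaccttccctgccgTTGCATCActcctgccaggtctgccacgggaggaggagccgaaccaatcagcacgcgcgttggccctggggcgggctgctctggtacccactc
Asns: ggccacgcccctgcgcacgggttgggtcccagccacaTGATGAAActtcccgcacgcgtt
Calr (chr8:84847032-84847111, minus strand) and Hspa5 (chr2:34771970-34772059, plus strand) hold an ER stress element (ERSE, CCAAT and CCACG with N at 9 positions between them), on the opposite strand in Calr:
Calr: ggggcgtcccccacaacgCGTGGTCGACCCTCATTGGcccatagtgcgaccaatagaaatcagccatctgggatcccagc
Hspa5: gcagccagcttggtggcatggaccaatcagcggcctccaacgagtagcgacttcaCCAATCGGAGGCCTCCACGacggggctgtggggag
Ppp1r15a (chr7:45526269-45526328, minus strand) holds the full cAMP response element, TGACGTCA, the site class of the 3 targeted factors:
Ppp1r15a: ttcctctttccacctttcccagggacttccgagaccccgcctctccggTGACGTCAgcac

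Motifs were searched on both strands in the 250 bases before the RefSeq start, for which 38 of the 40 members had an entry, 22 in the ATF4 arm and 16 in the ER arm. Members were counted by gene, with a match in any of their 41 promoters, while the shares of all promoters count each promoter. The units thus differ slightly. The full cAMP response element was in 1 of 22 ATF4 arm genes, Ppp1r15a, in 0 of 16 ER arm genes and in 1.55% of all 32851 promoters. Its half-site TGACG, which is part of the full element, was in 7 of 22, in 7 of 16 and in 17.8% of all promoters. A CARE was in 6 of 22 (Asns, Chac1, Fgf21, Nupr1, Pycr1 and Vldlr), in 1 of 16 (Herpud1) and in 3.45% of all. An ERSE was in 0 of 22, in 7 of 16 (Calr, Canx, Creld2, Dnajc3, Hsp90b1, Hspa5 and Pdia6) and in 0.113% of all. ERSE-II was in Herpud1 alone among the members and in 0.0304% of all promoters. The letters TGACGTGG, a core that XBP1 and ATF6 are known to bind, were in none of the members and in 0.563% of all. The CCAAT box, which is also part of the ERSE, was in 13 of 22 and 15 of 16 members, against 33.8% of all promoters. The promoter of Sesn2, which falls in the results below, is not shown. It held the CCAAT box and none of the other motifs. A match of letters is a description and not a measured binding site.

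The libraries differ in ways that touch every member. Levels are in TPM, a unit that corrects for transcript length and gives each library the same total, so the read depth is unknown, and 17296 to 20703 genes were above 0 in a library. Cytosolic ribosomal protein transcripts took 12.8% to 15.4% of the TPM in 5 of the 6 libraries of the second run, 7.29% in ATF1/CREB1-KO replicate 3, and 2.73% to 4.20% in the other runs. Transcripts of the mitochondrial genome, whose share is also used as a sign of RNA quality, separated knockout and control libraries in both runs in which members were called. They took 3.20% to 4.31% of the TPM in ATF1/CREB1-KO against 2.08% to 2.33% in clones 6 to 8, and 2.06% to 2.63% in ATF1/CREB1/CREM-KO against 1.21% to 1.42% in clones 9 to 11. In ATF1-KO (0.892% to 1.14%) and clones 1 to 5 (0.941% to 1.13%) they overlapped. With these and the ribosomal protein transcripts left out of the total, all 7 calls of members given below were made again, and Ddit4 in ATF1/CREB1-KO and Cebpb in ATF1/CREB1/CREM-KO were called lower as well. ATF1/CREB1-KO replicate 3 stood apart from its group, with a standard deviation of the log2 difference across genes of 0.916 and 0.829 to its partners, and ATF1/CREB1/CREM-KO replicate 1 stood apart in the same way (0.703 and 0.698) from replicates 2 and 3, which were the closest pair of one label (0.445). Control clone 3 was as far from its partners (0.663 to 0.709, against 0.508 to 0.616 among the other 4 clones of that run). As a check of the labels, mean Atf1 was 26.6 against 42.2 TPM in ATF1-KO and Creb1 was 18.7 against 37.7 TPM in ATF1/CREB1/CREM-KO, while Crem was 30.5 against 22.7 TPM there. The transcript level of Crem thus goes against the third label, and since the edited stretches are not given it checks little. No targeted gene is given here for ATF1/CREB1-KO, nor Atf1 for ATF1/CREB1/CREM-KO, so the check does not cover these. "The libraries labelled" is therefore meant wherever a knockout is named. Aqp2 had a mean of 15.5 against 1516 TPM in ATF1/CREB1/CREM-KO. All 5 epithelial markers and 8 of 11 principal cell markers had a mean of at least 1 TPM, against 1 of 5 for intercalated cells, 1 of 4 for proximal tubule, 1 of 3 for immune cells and 0 of 4 for fibroblasts, with Col1a2 at 0 in every library. Summed fibroblast markers ran from 0.0100 to 1.95 TPM over the groups, summed immune markers from 1.76 to 13.6 TPM. The summed principal cell markers were 609 to 1396 TPM in ATF1/CREB1/CREM-KO and 1571 to 3650 TPM in its control clones, but of the 8 tested Aqp2 alone was called, 3 had a positive change and the median was -0.19. All 5 epithelial markers lay outside their controls in ATF1/CREB1/CREM-KO, 2 above and 3 below, with a median of -0.54 and sums of 6272 to 7629 TPM against 8092 to 9383 TPM. Of these Cdh1 was called higher by limma (0.61, adjusted p 0.00151), and in the fit of that run alone Krt19 and Krt8 were also called lower. The part of these markers in the results below was not tested.

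Most members did not pass the test under any label, and the few that did were single genes of either arm. In ATF1-KO no member passed the test in either arm. In ATF1/CREB1-KO 3 members rose, Pycr1 in the ATF4 arm and Calr and Herpud1 in the ER arm. They were 7.50% of the members, while 4.58% of all genes passed. None of these 3 passed with only the libraries of that run in the fit. With ATF1/CREB1/CREM-KO, Herpud1, Pycr1 and Chac1 rose and Sesn2 fell, of which Chac1 did not pass in the fit of its run alone. These were 10.0% of the members, while 8.02% of all genes passed. In such bulk libraries a change of RNA per cell and a change in the share of cells that express a gene cannot be told apart. Tests were made with limma on log2(TPM + 1), which understates the change of low genes, and a gene is called changed where its p-value, adjusted by the Benjamini-Hochberg method over the 13295 genes that averaged 1 TPM or more, is under 0.05. All 40 members were tested.

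In ATF1-KO, 0 of 22 and 0 of 18 members were called by limma, beside 0% of all genes, and 2 and 1 members had an unadjusted p under 0.05, as had 682 of all genes. The median change was 0.09 on the log2 scale in the ATF4 arm (from -0.76 to 0.39) and 0.01 in the ER arm (from -0.18 to 0.40), with 0.00 over all genes. In ATF1/CREB1-KO, 1 of 22 and 2 of 18 members were called, all higher, beside 4.58% of all genes, 1.47% higher and 3.11% lower. The medians were 0.09 (from -0.67 to 1.15) and 0.05 (from -0.70 to 0.66), with -0.02 over all genes. With only the 6 libraries of that run in the fit, none of these members was called, and 0.0715% of genes were. The ATF1/CREB1/CREM-KO libraries had 3 of 22 and 1 of 18 members called, beside 8.02% of all genes, 2.90% higher and 5.12% lower. The medians were 0.08 (from -0.82 to 1.34) and 0.21 (from -0.76 to 1.30), with -0.04 over all genes. Over both arms, 7.50% of the members were called in ATF1/CREB1-KO and 10.0% in ATF1/CREB1/CREM-KO, not far from the 4.58% and 8.02% of all genes. With only the 6 libraries of the third run, Pycr1, Sesn2 and Cebpb were called in the ATF4 arm and Herpud1, Dnajb9 and Pdia6 in the ER arm, beside 9.17% of genes.

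**Figure D1:**
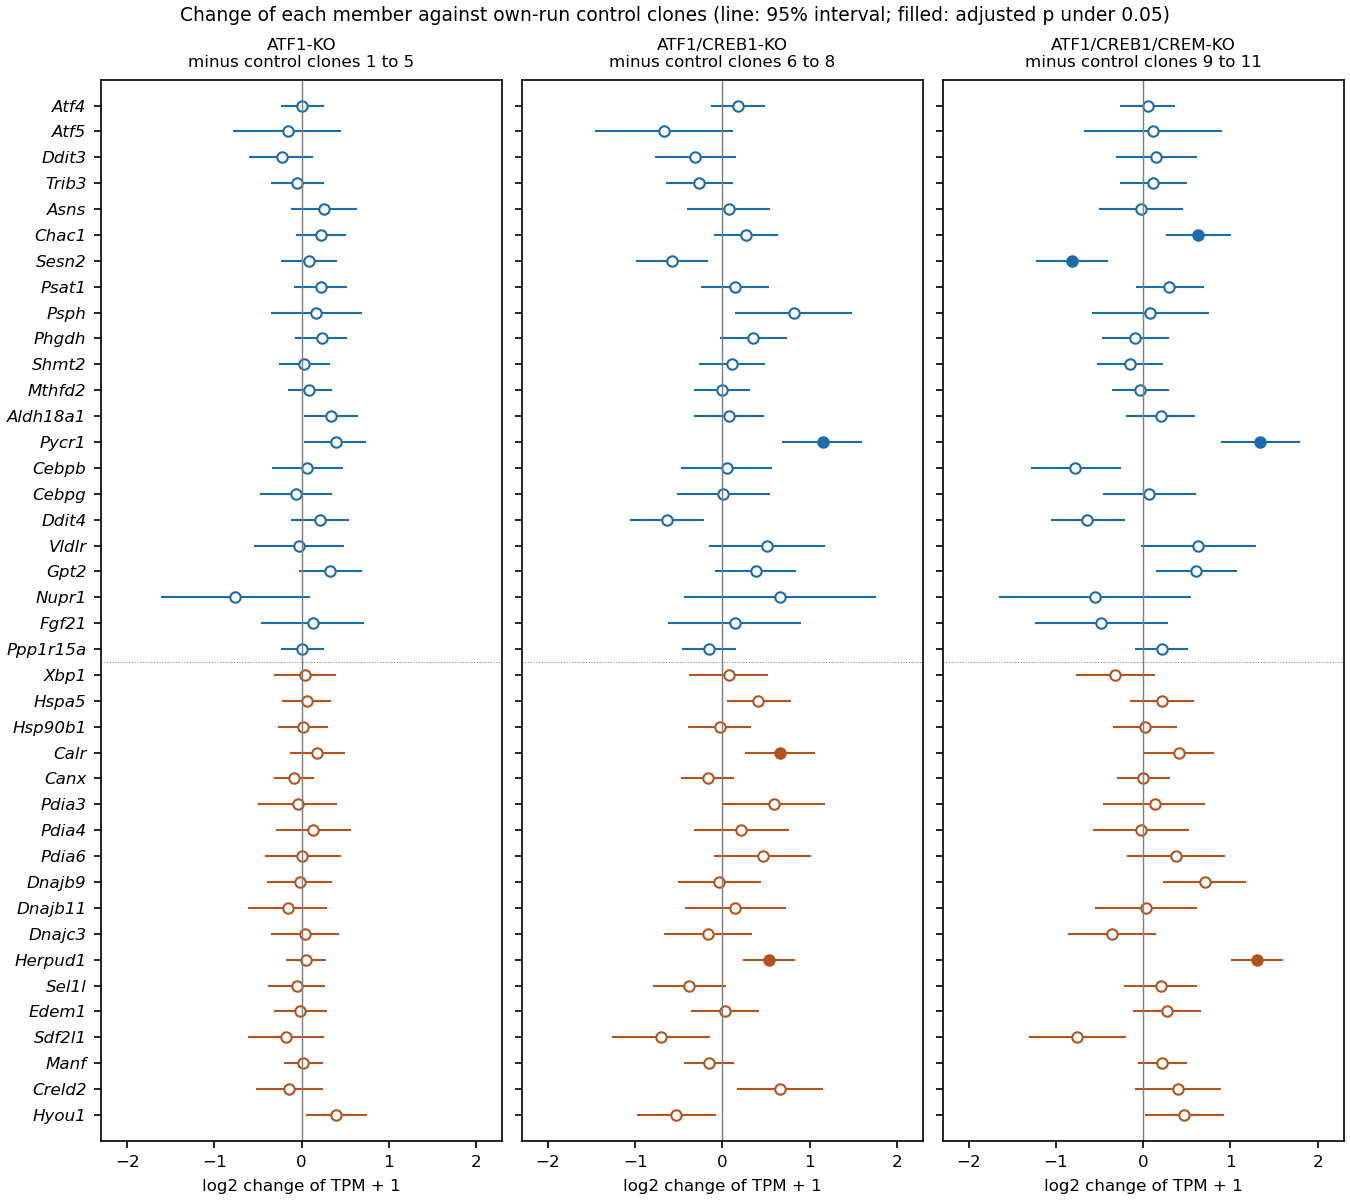
Change of each of the 40 members on the log2(TPM + 1) scale (horizontal axis, knockout label minus own-run control clones) with its 95% interval, ATF4 arm in blue above the dotted line and ER chaperone arm in orange below it; filled points have a limma adjusted p under 0.05. No point is filled for ATF1-KO, 3 are for ATF1/CREB1-KO and 4 for ATF1/CREB1/CREM-KO, with Pycr1 (1.34) and Herpud1 (1.30) farthest to the right.

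Counted by libraries that do not overlap, in ATF1-KO all 5 libraries lay above all 5 control clones for 1 ATF4 arm gene (Pycr1) and 2 ER arm genes (Calr and Hyou1), beside 0.579% of all genes above and 1.29% in either direction. In ATF1/CREB1-KO, 4 ATF4 arm genes lay wholly above and 2 wholly below, and 3 ER arm genes wholly above, beside 18.6% of all genes in either direction, 6.55% above and 12.1% below. With ATF1/CREB1/CREM-KO, 4 ATF4 arm genes lay wholly above and 4 wholly below. In the ER arm 9 lay wholly above and 2 wholly below, beside 34.2% of all genes in either direction, 14.1% above and 20.1% below. The 9 ER arm genes were Calr, Creld2, Dnajb9, Herpud1, Hspa5, Hyou1, Manf, Pdia3 and Pdia6, and of these Herpud1 was called.

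Among the regulators of the ATF4 arm, Atf4 itself, the central transcription factor, was not called under any label. Its 3 ATF1/CREB1/CREM-KO libraries had 318, 309 and 313 TPM, and control clones 9 to 11 had 295, 291 and 324 TPM. The groups overlapped, and the change was 0.05 on the log2 scale with a 95% interval from -0.25 to 0.35. In ATF1-KO the change of Atf4 was 0.01 (-0.22 to 0.24), and in ATF1/CREB1-KO it was 0.18 (-0.12 to 0.48), where replicate 3 had 246 TPM and the others 148 and 161 TPM.

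Ddit3 encodes CHOP, the factor that links lasting ER stress to cell death. Under its first identifier it had 49.2, 44.0 and 39.9 TPM in ATF1/CREB1/CREM-KO and 37.0, 38.0 and 44.4 TPM in control clones 9 to 11. The groups overlapped and the change was 0.15 (-0.30 to 0.61). Its second row was listed at 0 in 12 of the 22 libraries and reached 42.4 TPM in control clone 9, so its level may be divided between the rows and its values are uncertain. With both rows summed, the count of called members was the same in each arm and comparison.

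Cebpb and Cebpg encode C/EBP factors that pair with ATF4 at the CARE. Cebpb had 133, 146 and 134 TPM in ATF1/CREB1/CREM-KO and 218, 247 and 246 TPM in its control clones. All 3 knockout libraries lay below all 3 controls, but the change of -0.78 (SE 0.24) just missed the threshold, with a limma adjusted p of 0.0558. In the fit with only the run's 6 libraries its adjusted p was 0.00539. In ATF1/CREB1-KO the Cebpb libraries fell on both sides of their controls, with 87.4, 80.4 and 181 TPM against 105, 107 and 102 TPM. Cebpg had changes of -0.06, 0.01 and 0.07 in order of the labels, none of them called. Its ATF1/CREB1-KO libraries had 15.3, 16.3 and 44.8 TPM against 20.2, 26.1 and 21.1 TPM, so that replicates 1 and 2 were below the controls and replicate 3 above them.

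The other regulators were not called in any comparison. Atf5, an ATF4 target that itself binds DNA, was the lowest member in run 1, with 2.84 to 3.86 TPM in ATF1-KO and 2.85 to 5.87 TPM in the control clones. In ATF1/CREB1-KO it had 12.7, 13.9 and 2.22 TPM against 13.6, 12.9 and 12.1 TPM, so that replicate 3 alone was far below the controls. Trib3, a pseudokinase that restrains ATF4, changed by -0.05, -0.27 and 0.11 in order of the labels. Ppp1r15a encodes GADD34, the subunit that directs a phosphatase to eIF2 and ends the response, and it is the member whose promoter above holds the full cAMP response element. It had 52.4, 50.5 and 49.3 TPM in ATF1/CREB1/CREM-KO against 43.0, 46.6 and 41.6 TPM in controls. All 3 lay above the controls, with a change of 0.21 (-0.08 to 0.50) that was not called (limma adjusted p 0.424). In ATF1-KO its change was 0.01 (-0.22 to 0.24). In ATF1/CREB1-KO it was -0.15 (-0.45 to 0.14), also not called (limma adjusted p 0.577). The ATF1/CREB1-KO libraries had 9.82 to 17.5 TPM and overlapped their controls, at 14.9 to 15.8 TPM.

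Nupr1, a small stress-induced chromatin protein, varied widely within groups. In ATF1-KO it had 32.2, 37.5, 99.5, 200 and 142 TPM, and in control clones 1 to 5 it had 226, 133, 159, 78.0 and 131 TPM. Replicates 1 and 2 of ATF1-KO lay below all controls and the other 3 among them. The change of -0.76 had a 95% interval from -1.60 to 0.09. In ATF1/CREB1-KO all 3 libraries, at 420, 627 and 731 TPM, were above their controls at 346, 356 and 396 TPM, without a call (0.66, adjusted p 0.512). The sign was opposite in ATF1/CREB1/CREM-KO, with 36.4 to 89.7 TPM against 84.3 to 104 TPM, also without a call (-0.55, limma adjusted p 0.608).

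The amino acid genes of the ATF4 arm held its most stable call. Pycr1 (ENSMUSG00000025140) encodes the mitochondrial reductase that makes proline in its last step. The ATF1/CREB1/CREM-KO libraries had 51.4, 42.2 and 39.97 TPM of it, and in control clones 9 to 11 it had 18.5, 17.5 and 14.7 TPM. Every knockout library was above every control, by 2.64-fold in the means. The change was 1.34 (SE 0.21) with a limma adjusted p of 0.000419. It was called when each of the 6 libraries was left out in turn (from 1.24 to 1.42) and in the fit of the run alone (adjusted p 0.00410).

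In ATF1/CREB1-KO Pycr1 had 6.83, 5.83 and 12.5 TPM, against 2.16, 3.72 and 3.46 TPM in control clones 6 to 8. The groups again did not overlap, and replicate 3 was the highest. The change was 1.15 (SE 0.21, 2.69-fold in the means) with a limma adjusted p of 0.00436, and it was called without any 1 library. In the fit of the run alone the adjusted p was 0.362, so this call rests on the spread shared with the other runs. In ATF1-KO the 5 libraries had 30.1, 27.7, 39.0, 34.2 and 31.4 TPM, and the control clones 27.6, 26.5, 27.1, 19.0 and 23.3 TPM. They lay just above the controls, by 0.39 (0.04 to 0.73), which was not called (adjusted p 0.933).

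Aldh18a1 encodes the enzyme upstream of Pycr1 in proline synthesis and was not called. Its ATF1/CREB1/CREM-KO libraries had 176, 103 and 106 TPM against 102, 116 and 108 TPM. Replicate 1 alone was above the controls, and the change was 0.20 (-0.19 to 0.58). In ATF1-KO the change was 0.34 (0.04 to 0.64), with an adjusted p of 0.900.

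The serine and one-carbon genes were not called under any label. Phgdh, Psat1 and Psph encode the 3 steps of serine synthesis, and Shmt2 and Mthfd2 the mitochondrial folate enzymes that use serine. Over the 3 comparisons Phgdh changed by 0.23, 0.35 and -0.09 in order of the labels. Psat1 changed by 0.22, 0.15 and 0.30, and its 3 ATF1/CREB1/CREM-KO libraries (477, 456 and 434 TPM) were above all 3 controls (369, 409 and 333 TPM). The largest difference in this group was that of Psph in ATF1/CREB1-KO, with 11.7, 13.3 and 40.1 TPM against 10.2, 13.7 and 7.25 TPM. Replicate 3 alone was above the controls, and the change of 0.82 was not called (adjusted p 0.144). Shmt2 and Mthfd2 lay between -0.15 and 0.11 in every comparison.

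Asns, asparagine synthetase and a classical ATF4 target with the CARE shown above, did not pass the test. It had 311, 198 and 186 TPM in ATF1/CREB1/CREM-KO and 229, 224 and 236 TPM in the control clones. Replicate 1 was above and the other replicates below all controls, and the change was -0.03 (-0.50 to 0.44). Gpt2, a mitochondrial alanine aminotransferase, had 52.4, 36.9 and 39.5 TPM there against 24.2, 37.6 and 22.8 TPM. The groups overlapped through control clone 10, and the change of 0.61 was not called (adjusted p 0.0933).

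Of the remaining ATF4 targets 1 rose and 1 fell in ATF1/CREB1/CREM-KO. Chac1 (ENSMUSG00000027313) encodes an enzyme that degrades glutathione. It had 115, 83.7 and 76.7 TPM, and control clones 9 to 11 had 54.2, 58.0 and 62.3 TPM. All 3 libraries were above all controls, by 1.58-fold in the means, with replicate 1 the highest. The change of 0.63 (SE 0.17) had a limma adjusted p of 0.0266. The call was lost without replicate 1 (0.46, adjusted p 0.120), without control clone 9, 10 or 11 (adjusted p 0.108, 0.0774 and 0.0516) and in the fit of the run alone (0.0563). In ATF1/CREB1-KO Chac1 had 42.1, 34.0 and 43.2 TPM against 30.7, 34.9 and 32.3 TPM, and was not called (0.27, adjusted p 0.386).

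Sesn2 (ENSMUSG00000028893) encodes sestrin 2, an amino acid sensor that restrains mTORC1. It had 19.4, 30.1 and 30.4 TPM in ATF1/CREB1/CREM-KO and 49.3, 41.0 and 50.9 TPM in its control clones. All 3 were below all controls, at 56.6% of their mean, with replicate 1 the lowest. The change was -0.82 (SE 0.19) with a limma adjusted p of 0.00996 and 0.0463 in the fit of the run alone. Without replicate 1 it was -0.61 with an adjusted p of 0.0529. In ATF1/CREB1-KO Sesn2 had 5.37, 5.29 and 4.67 TPM against 7.61, 7.32 and 9.61 TPM, again with no overlap, and a change of -0.58 that was not called (adjusted p 0.0863).

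Ddit4 encodes REDD1, another inhibitor of mTORC1. It had 19.5, 18.9 and 22.6 TPM in ATF1/CREB1/CREM-KO against 26.3, 39.0 and 32.1 TPM, and 11.8, 20.4 and 13.2 TPM in ATF1/CREB1-KO against 22.3, 25.5 and 22.5 TPM. In both, every knockout library was below every control of its run. The change was -0.64 in each, with limma adjusted p of 0.0537 and 0.0685, so neither was called. In ATF1-KO it was 0.21 (-0.11 to 0.53).

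Vldlr, a lipoprotein receptor, split the ATF1/CREB1/CREM-KO libraries. Replicate 1 had 41.3 TPM and replicates 2 and 3 had 119 and 114 TPM, against 54.8, 49.8 and 54.3 TPM in the control clones. Replicate 1 was thus below all controls and the others above, and the change of 0.63 was not called (adjusted p 0.241). Fgf21, a secreted stress hormone, was low throughout: 1.35, 2.54 and 2.09 TPM in ATF1/CREB1/CREM-KO and 2.98, 2.96 and 3.44 TPM in its controls. All 3 libraries were below the controls, with no call (-0.48, adjusted p 0.483).

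In the ER arm the clearest difference was in Herpud1 (ENSMUSG00000031770), which encodes a membrane protein of the complex that extracts misfolded protein from the ER for degradation, and whose promoter, shown above, holds a half-site, a CARE and an ERSE-II. The ATF1/CREB1/CREM-KO libraries had 498, 613 and 558 TPM of it. Control clones 9 to 11 had 235, 205 and 234 TPM. Every knockout library was above every control clone of any run, of which the highest had 238 TPM. The means differed 2.48-fold. The change was 1.30 (SE 0.14, 95% interval 1.02 to 1.59) with a limma adjusted p of 2.95e-06. It was called without any 1 of the 6 libraries (1.23 to 1.38) and in the fit of the run alone (adjusted p 0.00172).

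In ATF1/CREB1-KO Herpud1 had 72.2, 87.2 and 91.3 TPM and control clones 6 to 8 had 58.4, 56.4 and 56.4 TPM. There was no overlap, and the means differed 1.46-fold. The change of 0.54 (SE 0.14) had a limma adjusted p of 0.0297. This call was lost without replicate 3 (0.47, adjusted p 0.0513), without control clone 6, 7 or 8 (0.0783, 0.0947 and 0.0881) and in the fit of the run alone (0.475). It was also lost with quantile normalization. In ATF1-KO Herpud1 had 190, 194, 245, 210 and 207 TPM against 238, 222, 162, 207 and 188 TPM. The groups overlapped, and the change was 0.05 (-0.17 to 0.27).

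**Figure D2:**
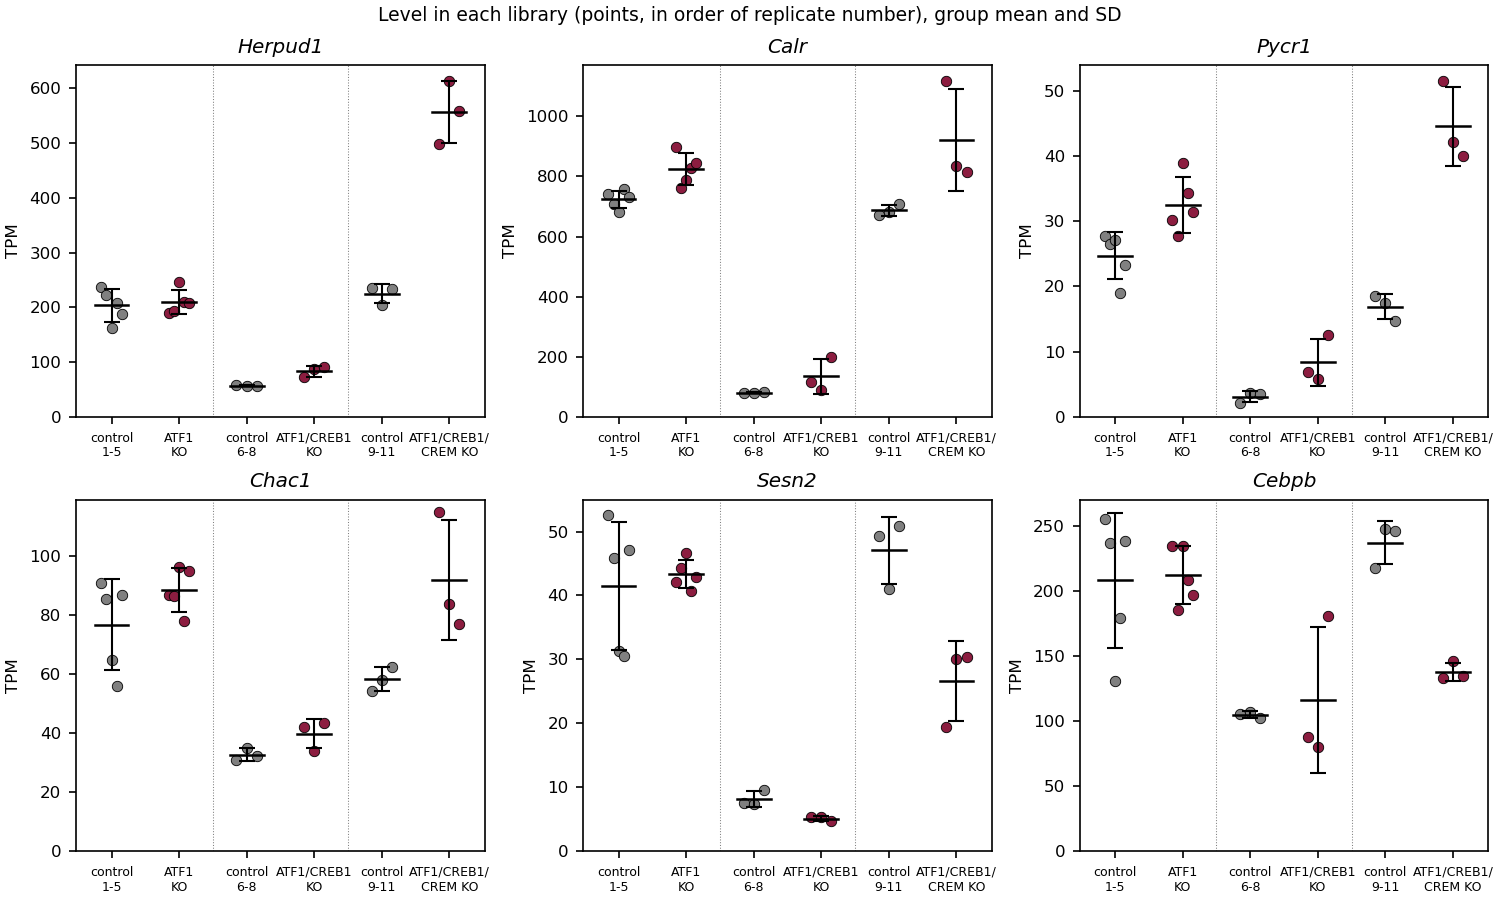
TPM in each library (points, vertical axis from 0) of Herpud1, Calr, Pycr1, Chac1, Sesn2 and Cebpb, by group along the horizontal axis, control clones in grey and knockout labels in red, with the group mean and SD in black. Herpud1 in ATF1/CREB1/CREM-KO sits between 498 and 613 TPM, above all control clones, while all 6 genes are lower in the libraries of control clones 6 to 8 than in the other control clones of the same panel.

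The other genes of ER-associated degradation did not follow Herpud1 into a call. Sel1l encodes the adaptor of the ubiquitin ligase at the ER membrane. It had 214, 167 and 161 TPM in ATF1/CREB1/CREM-KO against 162, 153 and 152 TPM, with an overlap at the lowest library and a change of 0.20 (-0.21 to 0.61). Edem1 encodes a lectin-like protein that marks misfolded glycoproteins. It had 40.5, 29.1 and 26.2 TPM against 27.2, 26.8 and 23.6 TPM, a change of 0.27 (-0.11 to 0.65). In ATF1/CREB1-KO Sel1l had 83.5, 57.8 and 36.6 TPM against 79.9, 72.6 and 67.8 TPM, on both sides of its controls (-0.38, adjusted p 0.288).

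Calr (ENSMUSG00000003814) encodes calreticulin, a lectin chaperone of the ER lumen. In ATF1/CREB1-KO it had 117, 89.2 and 200 TPM, and control clones 6 to 8 had 81.2, 78.1 and 82.5 TPM. All 3 were above the controls, and replicate 3 was far above the rest. The change of 0.66 (SE 0.19, 1.68-fold in the means) had a limma adjusted p of 0.0484. The call was lost without replicate 3 (0.34, adjusted p 0.0992), without control clone 6, 7 or 8 (0.120, 0.144 and 0.107) and in the fit of the run alone (0.561). It was also lost with a pseudocount of 5, without the filter on low values, with quantile normalization and with array weights. Among these settings the change went down to 0.24. Calr in ATF1/CREB1/CREM-KO had 1118, 835 and 814 TPM against 673, 682 and 708 TPM, with no overlap and no call (0.41, adjusted p 0.209). In ATF1-KO its 5 libraries had 898, 761, 787, 830 and 843 TPM, above the 740, 709, 682, 757 and 732 TPM of the control clones, also without a call (0.18, adjusted p 1.00).

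Canx, the membrane-bound relative of calreticulin, changed by -0.09, -0.17 and 0.00 in order of the labels, none of them called. Hspa5 encodes BiP, the main HSP70 chaperone of the ER, and was the most abundant member in control clones 1 to 5 and 9 to 11. It had 962, 906 and 865 TPM in ATF1/CREB1/CREM-KO and 799, 751 and 799 TPM in the controls. All 3 libraries were above the controls, by 1.16-fold in the means, and the change of 0.22 (-0.14 to 0.57) was not called (adjusted p 0.508). In ATF1/CREB1-KO it had 113, 96.4 and 199 TPM against 92.3, 96.2 and 103 TPM. The groups overlapped, and replicate 3 was the only library far above the controls (0.41, adjusted p 0.168). Hsp90b1, the HSP90 of the ER, lay between -0.03 and 0.02 in the 3 comparisons.

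Hyou1, an exchange factor for BiP, had a different sign under the labels, none of it called. In ATF1-KO it had 27.4, 30.9, 30.2, 30.2 and 27.3 TPM against 24.2, 20.0, 23.3, 19.2 and 23.3 TPM. All 5 were above all controls, and the change was 0.40 (0.06 to 0.74, adjusted p 0.900). In ATF1/CREB1-KO it had 4.12, 5.20 and 1.89 TPM against 5.03, 4.33 and 7.62 TPM (-0.53, adjusted p 0.152), and in ATF1/CREB1/CREM-KO 32.1, 24.9 and 28.6 TPM against 20.7, 21.9 and 18.4 TPM (0.47, adjusted p 0.196).

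Of the smaller luminal proteins, Sdf2l1, a partner of ER DnaJ proteins, had the largest drop of the ER arm without a call. It had 45.7, 75.5 and 76.2 TPM in ATF1/CREB1/CREM-KO against 99.4, 119 and 110 TPM. All 3 were below the controls, with a change of -0.76 (adjusted p 0.0868). Its ATF1/CREB1-KO libraries had 39.5, 48.4 and 118 TPM against 101, 107 and 91.5 TPM, so replicates 1 and 2 were below the controls and replicate 3 above them. The change was -0.70 (adjusted p 0.133) with replicate 3 and -1.17 (adjusted p 0.000338) without it. Creld2, a disulfide-linked folding factor, moved the other way in numbers, with 65.7, 75.5 and 163 TPM against 54.6, 57.5 and 64.3 TPM in ATF1/CREB1-KO (0.66, adjusted p 0.104). Manf, a secreted BiP-binding factor, changed by 0.02, -0.15 and 0.22 without a call.

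Pdia3, Pdia4 and Pdia6 encode protein disulfide isomerases. None was called. In ATF1/CREB1-KO the 3 shared a pattern: replicate 3 had 298, 57.9 and 177 TPM in that order, while replicates 1 and 2 had 99.7 and 83.2, 23.5 and 21.1, and 68.5 and 50.5 TPM. The control clones had 88.0 to 91.9, 25.5 to 27.8 and 59.3 to 64.5 TPM, so replicate 3 alone stood well above them. Pdia6 in ATF1/CREB1/CREM-KO had 517, 504 and 455 TPM against 367, 374 and 389 TPM. There was no overlap, and the change of 0.38 was called in the fit of the run alone (adjusted p 0.0337) but not in the shared fit (0.436).

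The DnaJ cochaperones of BiP differed among themselves. Dnajb9, also known as ERdj4, had 59.0, 41.1 and 39.9 TPM in ATF1/CREB1/CREM-KO against 30.3, 27.4 and 25.7 TPM. All 3 were above the controls, 1.68-fold in the means, and the change of 0.71 (SE 0.22) missed the threshold with an adjusted p of 0.0572, against 0.0470 in the fit of the run alone. Dnajc3, an inhibitor of the eIF2 kinase PERK, had 66.5, 29.8 and 28.7 TPM against 52.5, 48.7 and 47.9 TPM. Replicate 1 was above and replicates 2 and 3 below all controls (-0.36, adjusted p 0.417). Dnajb11 had 108, 185 and 178 TPM against 151, 154 and 144 TPM, with replicate 1 below and the others above (0.03, adjusted p 0.980).

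Xbp1, the transcription factor of this arm, was not called under any label. It had 229, 219 and 206 TPM in ATF1/CREB1/CREM-KO and 284, 239 and 296 TPM in control clones 9 to 11. All 3 lay below the controls, and the change of -0.32 (-0.76 to 0.12) was not called (adjusted p 0.416). In ATF1-KO and ATF1/CREB1-KO it was 0.04 and 0.07.

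Single libraries carried much of the variation among the members. ATF1/CREB1-KO replicate 3 was above both other libraries of its label for 14 of 22 ATF4 arm genes and 13 of 18 ER arm genes, beside 50.4% of all genes. The median difference was 0.53 and 0.83 on the log2 scale, with 0.18 over all genes. Its ribosomal protein share was 7.29%, below the 13.3% and 12.8% of its partners, and the part of this in the result was not tested. Without replicate 3, Pycr1 was called higher and Cebpg and Sdf2l1 lower, and Calr and Herpud1 were not called. In that fit 196 of all 13313 genes tested were called higher and 821 lower. ATF1/CREB1/CREM-KO replicate 1 was above both others for 14 and 11 members and below both for 7 and 7, beside 42.5% and 40.3% of all genes, with medians of 0.08 and 0.12, against 0.00 over all genes. With the closely matched replicates 2 and 3 of that label averaged as 1 sample, 3 and 1 members were again called, with Herpud1 at 1.27 (adjusted p 4.31e-05) and Pycr1 at 1.40 (adjusted p 0.00168).

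**Figure D3:**
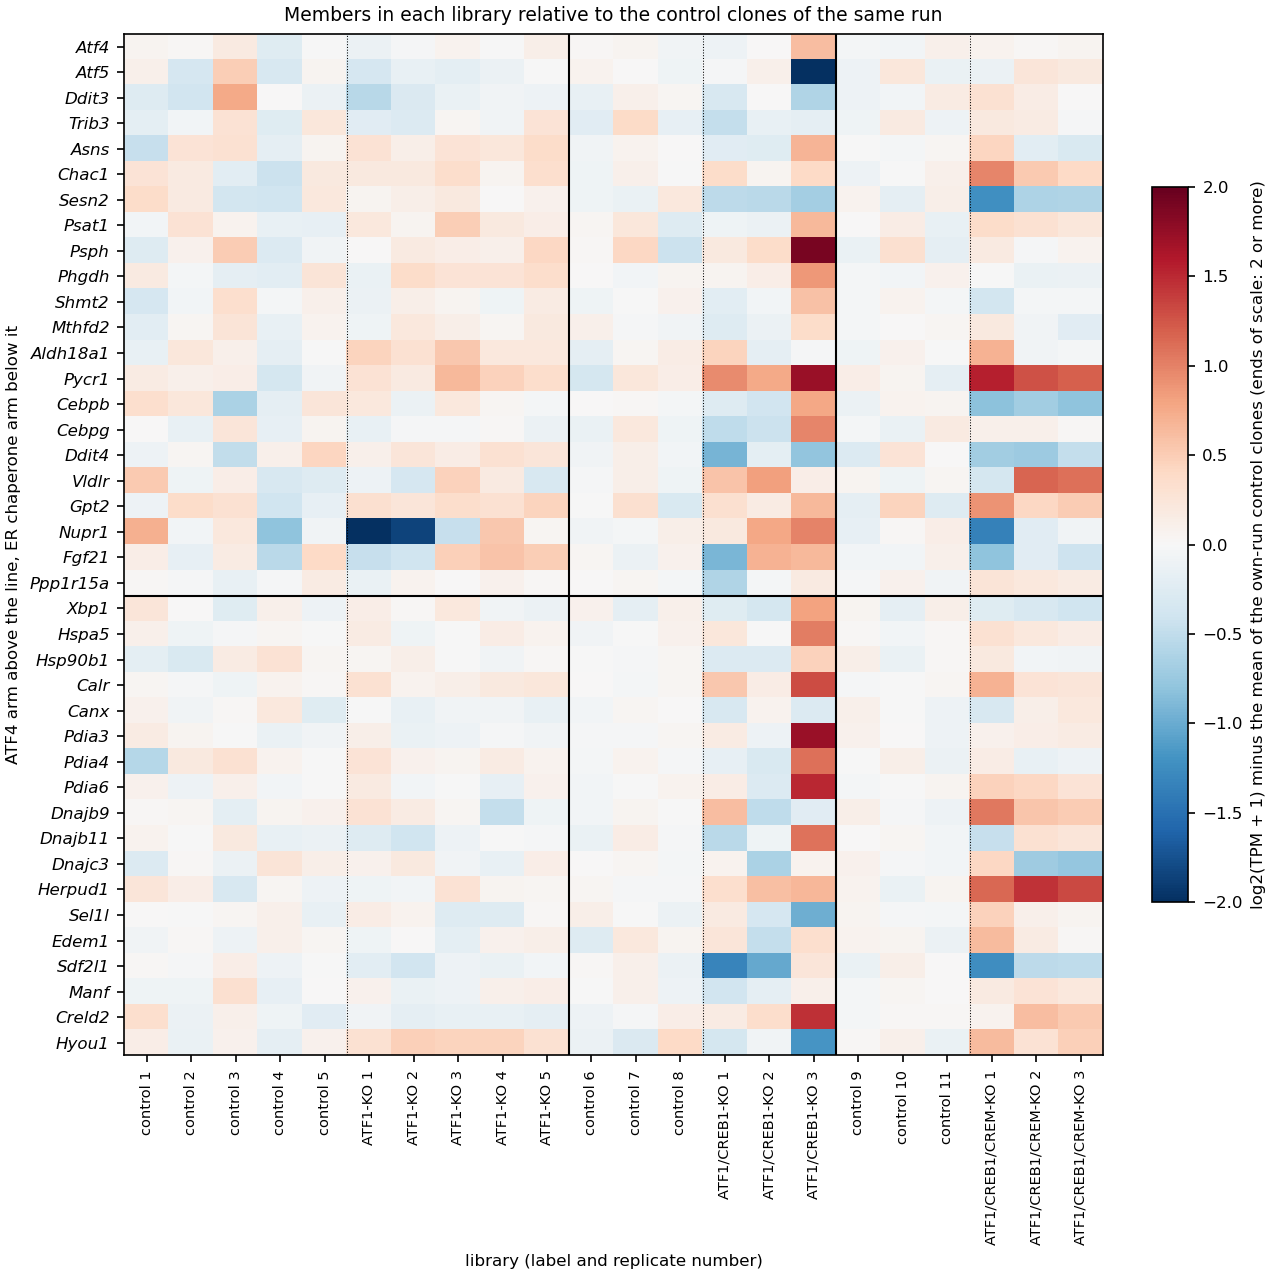
log2(TPM + 1) of each member (rows) in each of the 22 libraries (columns, by label and replicate number) minus the mean of the control clones of the same run, red higher and blue lower, with the colour scale ending at 2 in each direction. Herpud1 and Pycr1 are red in all 3 ATF1/CREB1/CREM-KO libraries, and the column of ATF1/CREB1-KO replicate 3 is darker than those of its partners, with a median difference of 0.83 in the ER arm.

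Whether the labels differed from each other was tested as a difference between their own-run changes. None of the 40 members was called by limma for ATF1/CREB1/CREM-KO against ATF1/CREB1-KO, beside 0.188% of all genes, nor for ATF1/CREB1-KO against ATF1-KO, beside 1.46%. At an unadjusted p under 0.05 there were 1 ATF4 arm and 3 ER arm genes in the first difference, 10.0% of the members beside 8.39% of all genes, and 4 and 3 in the second, 17.5% beside 15.5%. For Herpud1 the change in ATF1/CREB1/CREM-KO was larger by 0.77 (0.36 to 1.17, adjusted p 0.193). For Pycr1 it was larger by 0.20 (-0.43 to 0.83, adjusted p 0.866), for Chac1 by 0.36 (-0.15 to 0.86), and for Sesn2 the difference was -0.24 (-0.81 to 0.33). Hyou1 had the largest positive difference of the ER arm, 1.00 (0.38 to 1.62, adjusted p 0.292).

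The control clones of the second run had a different level of nearly all members. Clones 6 to 8 were all below clones 1 to 5 and 9 to 11 for 18 of 22 ATF4 arm genes (81.8%) and 16 of 18 ER arm genes (88.9%), beside 67.5% of all genes. The median log2 ratio of the means was -1.71 and -2.13, with -1.39 over all genes. Atf5, Nupr1 and Manf were above in all 3 clones, and Ddit3, Fgf21 and Sdf2l1 overlapped. Calr, for example, had 78.1 to 82.5 TPM in clones 6 to 8 and 673 to 757 TPM in the other control clones. These are unmodified clones under the same treatment, so the level of a member in ATF1/CREB1-KO can be read only against its own run. With all 11 control clones as the comparison, the ATF1/CREB1-KO changes of Pycr1, Calr and Herpud1 were -0.64, -1.61 and -0.82. That of Aldh18a1 was -1.93, against 0.08 within its own run.

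**Figure D4:**
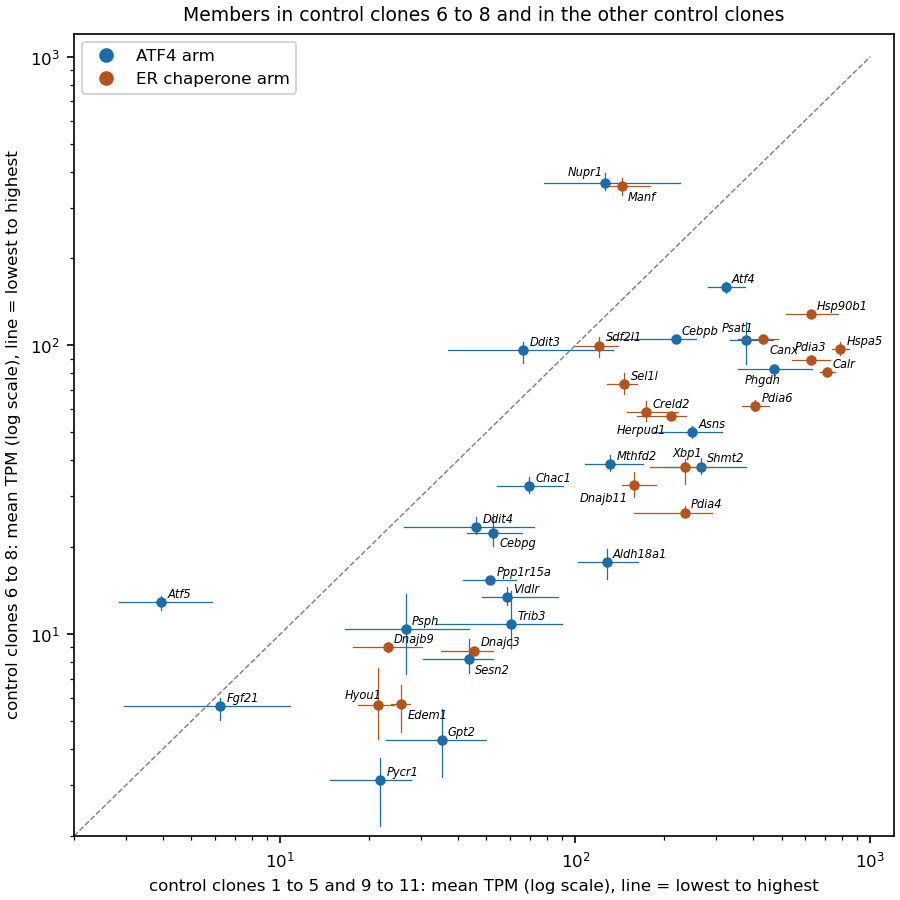
Mean TPM of each member in control clones 6 to 8 (vertical log axis) against control clones 1 to 5 and 9 to 11 (horizontal log axis), with thin lines from the lowest to the highest library, ATF4 arm in blue and ER chaperone arm in orange; the dashed line marks equal levels. Most members lie below the line, with a median log2 ratio of -1.71 and -2.13 in the arms, and Atf5, Nupr1 and Manf lie above it.

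Of 97 tested genes in 5 other lists of these pathways, 5 were called in ATF1/CREB1-KO (5.15%, beside 4.58% of all genes) and 8 in ATF1/CREB1/CREM-KO (8.25%, beside 8.02%), close to the share over all genes. In ATF1-KO none was called in any of the lists. Of 18 stress sensors and eIF2 factors, 1 was lower in ATF1/CREB1-KO, Atf6 (-0.42, limma adjusted p 0.0193), the sensor that is cut to release a transcription factor. With ATF1/CREB1/CREM-KO 1 was lower, Mbtps1 (-0.47, adjusted p 0.0463), the protease that makes the first cut in ATF6. Of 20 tRNA synthetases, many of them ATF4 targets, Qars was lower in ATF1/CREB1-KO (-0.75, adjusted p 0.0234) and Eprs in ATF1/CREB1/CREM-KO (-0.54, adjusted p 0.0173). The list medians there were 0.16 and 0.15, and in ATF1/CREB1/CREM-KO 9 of the 20 had all knockout libraries above the control clones, beside 14.1% of all genes, and 3 had all below, beside 20.1%. Of 18 amino acid transporters and other ATF4 targets, 15 were expressed enough to test, and Pck2, the mitochondrial PEP carboxykinase, was lower in ATF1/CREB1-KO and in ATF1/CREB1/CREM-KO, by -0.51 in each (adjusted p 0.0184 and 0.00962).

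Of 30 further genes of ER translocation, folding and degradation, Ssr4, a subunit of the translocon-associated complex, rose in ATF1/CREB1-KO (0.71, limma adjusted p 0.00548). Under ATF1/CREB1/CREM-KO 3 rose: Ssr4 (0.74, adjusted p 0.00152), P4hb, the archetypal disulfide isomerase (0.48, adjusted p 0.0338), and Stt3a, the catalytic subunit of an oligosaccharyltransferase (0.32, adjusted p 0.0479). Of 14 tested cytosolic and mitochondrial chaperones and proteases, Lonp1, the mitochondrial matrix protease and an ATF4 target, rose with both labels. It had 206, 208 and 208 TPM in ATF1/CREB1/CREM-KO against 91.7, 104 and 94.99 TPM in the control clones. The groups were far apart relative to their spread, with a change of 1.09 (SE 0.12, adjusted p 8.18e-06). In ATF1/CREB1-KO it had 33.2, 37.7 and 25.6 TPM against 21.7, 24.6 and 22.1 TPM (0.46, adjusted p 0.0367). Clpp, the mitochondrial peptidase subunit, rose in ATF1/CREB1/CREM-KO (0.47, adjusted p 0.0262). None of the ATF1/CREB1-KO calls in these lists held in the fit of that run alone, where the adjusted p ran from 0.371 for Ssr4 to 0.555 for Lonp1. In the third run alone Mbtps1 (0.0779), P4hb (0.110) and Clpp (0.0563) were also not called, while 8 others were, which are named after their values were seen. Hars, Aars and Nars (tRNA synthetases), Slc3a2 (the heavy chain of amino acid transporters), Ero1a (the oxidase that recharges disulfide isomerases) and Rpn1 and Rpn2 (oligosaccharyltransferase subunits) were called higher there, and Jdp2, a basic leucine zipper factor, lower. Their adjusted p ran from 0.0130 for Rpn1 to 0.0425 for Jdp2. In all 13 of 98 tested genes were called in that fit (13.3%, beside 9.17% of all genes).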

How the data were processed

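The deposited table gives TPM per gene for 22 of 40 samples. Another 18, of a rescue experiment, were not analysed here. The labels' protocols describe SMARTer cDNA synthesis with amplification and Nextera XT tagmentation. STAR and RSEM are named in the submitters' processing notes, which give no version, and the genome build and annotation are not given in the sources used here. The authors deposited TPM, not counts, so no count model was run. Depth is unknown, and no counting error could be given.

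log2(TPM + 1) was fitted with limma 3.58.1 in R 4.3.3 (eBayes with trend) for the 13295 genes averaging 1 TPM or more, with 1 mean for each run and genotype over all 22 libraries (16 residual degrees of freedom) and Benjamini-Hochberg adjustment over all genes. The code was tested on simulated data. Motifs were searched in RefSeq promoters.

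All members are named. From the other lists, up to 3 called genes per direction and comparison are. The members, lists and tests were chosen with earlier results of these data known. Other pseudocounts, filters, scalings, weights and sets of libraries were tried.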

Additional observations from a re-analysis of the deposited data

Results flagged for a closer look

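In 3 of 80 groups of 5 libraries tested among the members, 1 library stood far from the rest of its group, where chance alone gives about 1 in 20. Ddit3 had 134.25 TPM in control clone 3, and the nearest other control clone of the run had 79.5 TPM. Its second row in the table was at 0 in all 5 control clones of that run, so it does not set clone 3 apart. Over all genes control clone 3 was farther from its partners than they were from each other. Dnajb9 had 17.61 TPM in the same clone, below the other control clones of the run, of which the nearest had 20.7 TPM. Phgdh had 483.04 TPM in ATF1-KO replicate 1, below the other ATF1-KO libraries, of which the nearest had 638 TPM. None of these genes was called in ATF1-KO.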

How the results depend on the processing

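Calls of members in ATF1-KO stayed at 0 in both arms under every alternative run. The replicate block, fitted on the libraries of that run alone, also called 0 members, and median changes under the block were 0.09 and 0.01. The numbers do not pair the libraries: deviations of same-numbered libraries correlated at -0.10 to 0.09, and only replicate 5 correlated best with its own number. In ATF1/CREB1-KO the count in the ATF4 arm, 1, was 2 without ribosomal protein and mitochondrial transcripts, 0 in the fit of the run alone and 6 against all 11 control clones. The ER arm count, 2, was 1 with a pseudocount of 5, without a filter or with quantile normalization, 4 with median-ratio scaling, 0 in the fit of the run alone and 6 against all control clones. With quantile normalization the gene called was neither Calr nor Herpud1, and with array weights Calr was not called. Without 1 library the counts in the ATF4 and ER arms ran from 1 to 2 and from 0 to 7. The last was without replicate 2, where 639 of all genes were called higher and 726 lower, beside 195 and 414 with all libraries. In ATF1/CREB1/CREM-KO the ATF4 arm count, 3, was 5 with a pseudocount of 5, 8 with array weights and 0 against all control clones. Cebpb was added without ribosomal protein and mitochondrial transcripts. In the fit of the run alone the count stayed at 3, with Cebpb called and Chac1 not. Smaller changes of a count are not all listed here. The ER arm count, 1, was 2 with a pseudocount of 5 or quantile normalization, 10 with array weights, 3 in the fit of the run alone and 0 against all control clones. Without 1 library they ran from 2 to 3 and from 1 to 2. The array weights gave replicate 1 of this label 0.256 and ATF1/CREB1-KO replicate 3 0.06. For the difference between ATF1/CREB1/CREM-KO and ATF1/CREB1-KO, 1 ER arm gene was called with quantile normalization, Herpud1 (1.32, adjusted p 0.0248), and with array weights (Herpud1 again, 0.78, adjusted p 0.0115), and 0 in both arms without 1 library. For that between ATF1/CREB1-KO and ATF1-KO, 1 ATF4 arm gene was called with quantile normalization and 1 ER arm gene with array weights, and without 1 library 0 to 1 and 0 to 2 were. Against all 11 control clones Pycr1, Calr and Herpud1 in ATF1/CREB1-KO changed sign (-0.64, -1.61 and -0.82), and Aldh18a1 went from 0.08, not called, to -1.93, called by limma at an adjusted p of 0.0493. Clones 6 to 8 have lower levels of these genes than the other control clones. Over all genes, the 195 higher and 414 lower calls of ATF1/CREB1-KO became 448 and 600 with median-ratio scaling, 490 and 473 with quantile normalization, 388 and 811 with array weights, 4 and 5 in the fit of the run alone and 342 and 3918 against all control clones. The 385 and 681 of ATF1/CREB1/CREM-KO became 504 and 513, 572 and 619, 1937 and 2669, 518 and 698, and 61 and 76 in that order, and 195 and 484 with its replicates 2 and 3 averaged. That averaging and the summing of both Ddit3 rows were chosen after seeing the data. The cause of these differences was not tested. The depth of the libraries is unknown, so its effect on these calls could not be assessed.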
